A study of Mus musculus with 4 samples.

Results

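Efferocytosis is the uptake of dying cells by phagocytes. This account follows 9 genes of that process in mouse alveolar macrophages (AMs), out of 20923 protein-coding genes in the annotation. The genes are Axl, Mertk and Tyro3 (the TAM receptors), Gas6, Pros1 and Mfge8 (the bridging proteins), Lrp1 (a further uptake receptor), and Elmo1 and Dock1 (the engulfment machinery). They were taken by name, and their loci were searched for peaks of SMAD4. A locus was the gene body plus 50 kb on either side of every curated RefSeq transcription start site (TSS) in the mouse build mm10. A peak belonged to a locus where its summit, the position with the most stacked fragments, lay inside. By this rule the loci held 29 of 16369 peaks in replicate 1 and 33 of 19015 in replicate 2.

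The AMs came from bronchoalveolar lavage and cell sorting of 9-week-old wild-type C57BL/6J mice. No genotype, treatment or time was compared, and the 4 samples were 2 SMAD4 libraries and 2 input libraries. Binding was measured by HT-ChIPmentation, in which the transposase Tn5 adds sequencing adapters to immunoprecipitated chromatin on the beads. The inputs enter only through the control level that the authors' peak caller set behind each peak, and nothing in the sources used here says whether the SMAD4 libraries came from separate mice or how many mice each pooled. A peak near a gene shows binding there and is not a measure of that gene's expression or of its control by SMAD4. As a check of the cell label, marker loci were examined, from lists chosen with earlier results of these data known. All 8 AM marker loci, among them Pparg, Siglecf and Marco, held a region called in both libraries, beside 39.1% of all protein-coding loci. For 7 of the 8, at least 1 such region was nearest to the marker's own TSS. The loci of S100a8 and Scgb1a1, markers of other cells, also held such a region, while those of Cd3e, Cd3g, Cd79a, Ly6g, Sftpc and Epcam held none. At both S100a8 and Scgb1a1, the strongest such region lay in a promoter and nearest to the marker's own TSS. Its fold enrichment over the control level was 13.6 and 30.7 in replicates 1 and 2 at S100a8, and 7.47 and 11.3 at Scgb1a1. The check therefore does not separate AMs from all other cells.

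A dying cell exposes phosphatidylserine on its surface. The TAM receptor tyrosine kinases do not touch this lipid themselves: GAS6 and protein S, the product of Pros1, bind it and the receptor, and so bridge the cells. GAS6 can engage AXL, MERTK and TYRO3, whereas protein S serves MERTK and TYRO3. MFGE8 bridges phosphatidylserine to integrins. LRP1 is a large endocytic receptor that takes up many ligands, including calreticulin-marked cells. ELMO1 and DOCK1 form an exchange factor for the GTPase RAC1, which drives the actin rearrangement of engulfment. In the airspaces, AMs clear dying cells and spent surfactant, and depend on TGFβ, whose signal reaches the nucleus through receptor-activated SMADs bound to SMAD4.

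The sequences at the strongest SMAD4 regions of these loci are shown first, since they are the stretches of the genome to which the values refer. Each is the 201 bp centred on the mean summit of both libraries, read from the plus strand of GRCm38 (RefSeq), the assembly that mm10 names. Capitals mark matches to the consensus strings described at the end.
Axl intron 4, chr7:25782868-25783068: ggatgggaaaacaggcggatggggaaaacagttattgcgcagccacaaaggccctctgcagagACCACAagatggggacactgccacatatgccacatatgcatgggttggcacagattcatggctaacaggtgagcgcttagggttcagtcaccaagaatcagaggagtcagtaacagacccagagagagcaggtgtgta
Mertk intron 1, chr2:128719436-128719636: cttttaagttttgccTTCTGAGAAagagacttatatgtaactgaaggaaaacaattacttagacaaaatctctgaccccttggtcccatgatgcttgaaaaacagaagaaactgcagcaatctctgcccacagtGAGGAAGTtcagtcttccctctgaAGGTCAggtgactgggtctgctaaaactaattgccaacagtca
Mertk intron 4, chr2:128745854-128746054: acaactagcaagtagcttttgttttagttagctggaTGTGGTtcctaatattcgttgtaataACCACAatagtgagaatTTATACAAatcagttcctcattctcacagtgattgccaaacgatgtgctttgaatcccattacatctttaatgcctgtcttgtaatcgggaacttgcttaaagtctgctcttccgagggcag
Pros1 intron 1, chr16:62857614-62857814: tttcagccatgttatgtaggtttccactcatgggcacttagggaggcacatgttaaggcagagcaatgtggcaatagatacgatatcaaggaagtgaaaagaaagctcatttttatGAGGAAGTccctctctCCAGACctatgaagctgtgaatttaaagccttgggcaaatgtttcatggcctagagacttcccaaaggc
Lrp1 intron 6, strongest, chr10:127604569-127604769: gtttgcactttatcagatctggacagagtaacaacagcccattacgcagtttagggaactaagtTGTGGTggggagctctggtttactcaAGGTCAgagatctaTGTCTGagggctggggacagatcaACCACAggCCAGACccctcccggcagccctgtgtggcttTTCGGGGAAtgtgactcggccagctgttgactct
Lrp1 intron 6, the next, chr10:127600107-127600307: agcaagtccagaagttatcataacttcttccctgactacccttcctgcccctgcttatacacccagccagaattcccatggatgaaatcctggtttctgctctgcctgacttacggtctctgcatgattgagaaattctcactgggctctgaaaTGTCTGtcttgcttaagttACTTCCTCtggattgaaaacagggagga
Elmo1 intron 14, chr13:20349876-20350076: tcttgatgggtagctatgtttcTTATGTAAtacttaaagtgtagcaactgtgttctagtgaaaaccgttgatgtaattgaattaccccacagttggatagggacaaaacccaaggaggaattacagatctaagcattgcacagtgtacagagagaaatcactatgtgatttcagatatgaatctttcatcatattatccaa
The strings differed among them. The Elmo1 window carried 1 CEBP match and no other, the stronger Lrp1 window carried RUNX, SMAD, nuclear receptor and STAT5 strings within the 201 bp, and the Pros1 window held a PU.1 string 8 bases before a SMAD string.

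A shared region, the merged interval of overlapping peaks of both libraries, was present at 5 of the 9 loci, namely Axl, Mertk, Pros1, Lrp1 and Elmo1. Over all protein-coding genes the same rule found one at 39.1% of loci. The 23 shared regions of these loci fell unevenly. Lrp1 had 7, Elmo1 6, Mertk 5, Axl 3 and Pros1 2. Tyro3, Gas6 and Dock1 had no peak in either library, and Mfge8 had 1 peak, in replicate 2. At least 1 peak in either library was found at 58.2% of all protein-coding loci, and at 6 of these 9. By role, the receptors held 15 shared regions, the engulfment machinery 6 and the bridging proteins 2. The roles differ in number and length of loci, so these totals do not compare how densely they were bound.

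**Figure D1:**
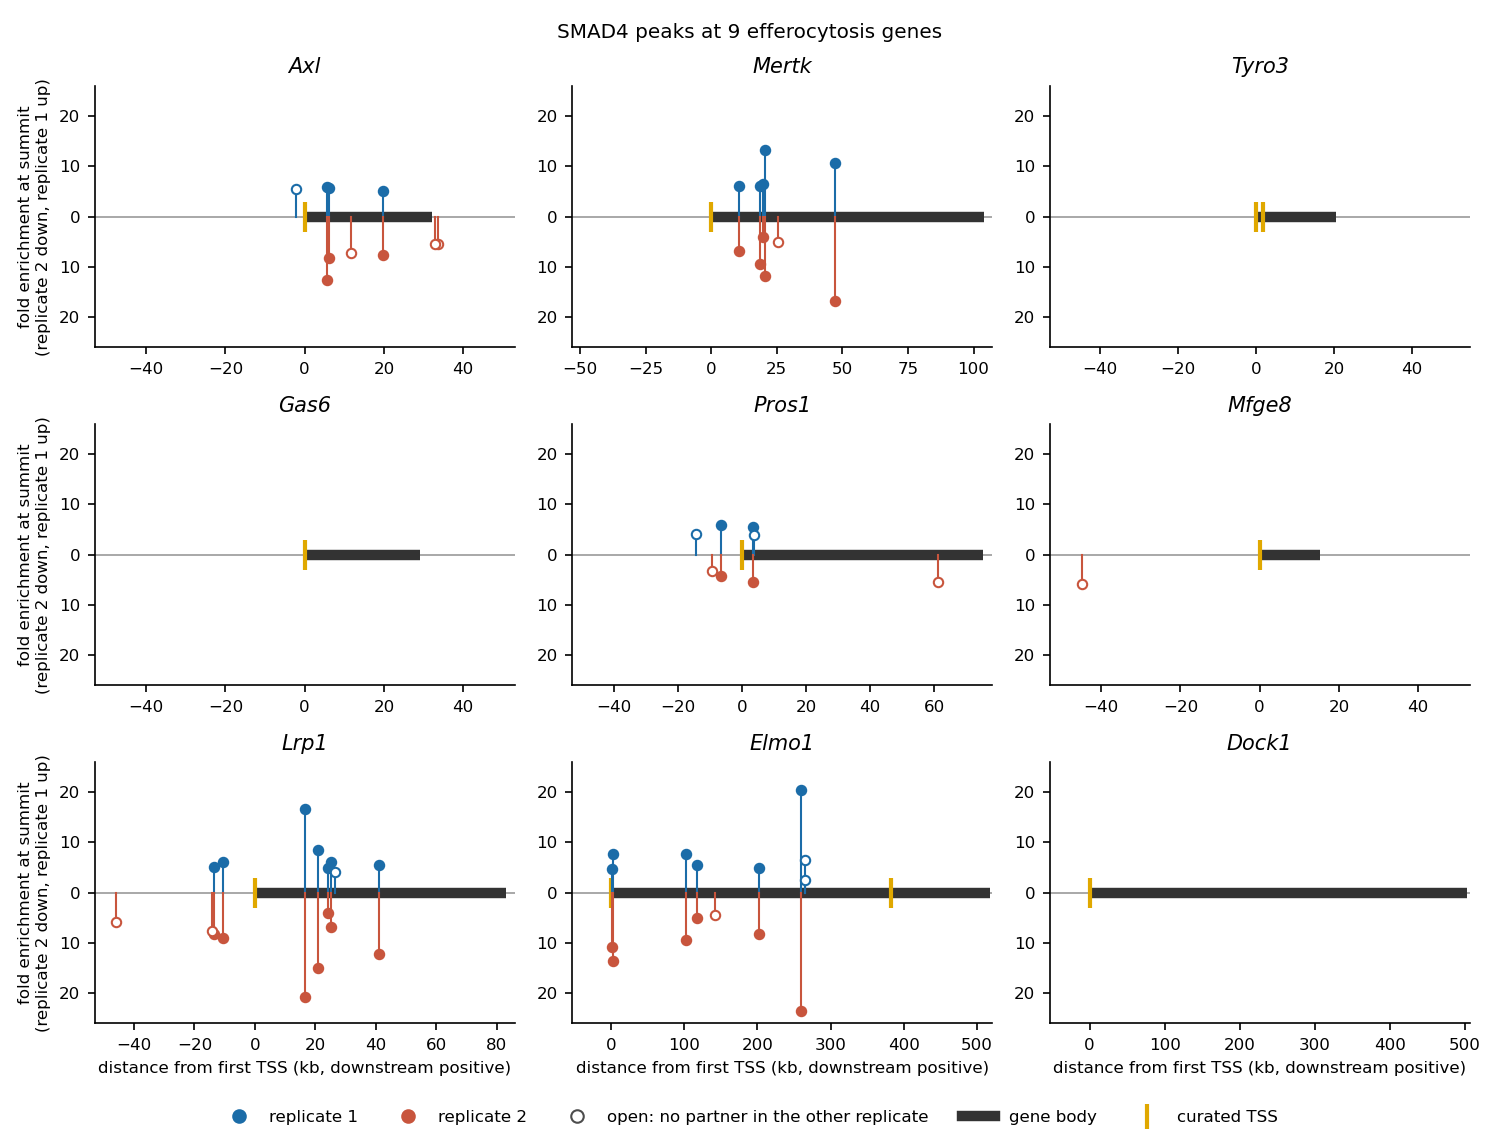
SMAD4 peaks at the 9 loci, by distance from the first TSS in kb (x axis, with its own range in each panel) and fold enrichment at the summit (y axis, replicate 1 upward and replicate 2 downward). Filled points have a partner in the other replicate and open points do not. The shared regions of Axl, Mertk and Lrp1 sat within or near the gene bodies. In the Lrp1 panel, a replicate 2 peak without a partner lay 46.0 kb upstream of the TSS. The peaks of Elmo1 were spread over its first transcript, and the panels of Tyro3, Gas6 and Dock1 are empty.

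The loci differ in length, and a long locus has more room for peaks. The 9 loci spanned 1935 kb and held 1.19 shared regions per 100 kb, against 0.661 over all protein-coding loci. Lrp1 was the densest, with 5.26 per 100 kb in 133 kb, and 0.607% of protein-coding genes had more shared regions than its 7. Mertk had 3.24 per 100 kb in 154 kb, Axl 3.0 in 100 kb, Pros1 1.60 in 125 kb and Elmo1 1.06 in 568 kb. In length classes set after the values were seen, a shared region was present at 37.1% of loci of up to 110 kb, where Axl had one and Gas6, Mfge8 and Tyro3 had none. It was present at 47.6% of loci of 110 to 200 kb, the class in which Mertk, Lrp1 and Pros1 all had one. Of the 260 loci of 500 kb or more, 41.9% had one, Elmo1 did and Dock1 did not. In the same order, these classes held 0.713, 0.799 and 0.175 shared regions per 100 kb. Elmo1 and Dock1, with spans of 568 and 553 kb, had 6 and 0 shared regions. The part of length in these counts was not tested.

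**Figure D2:**
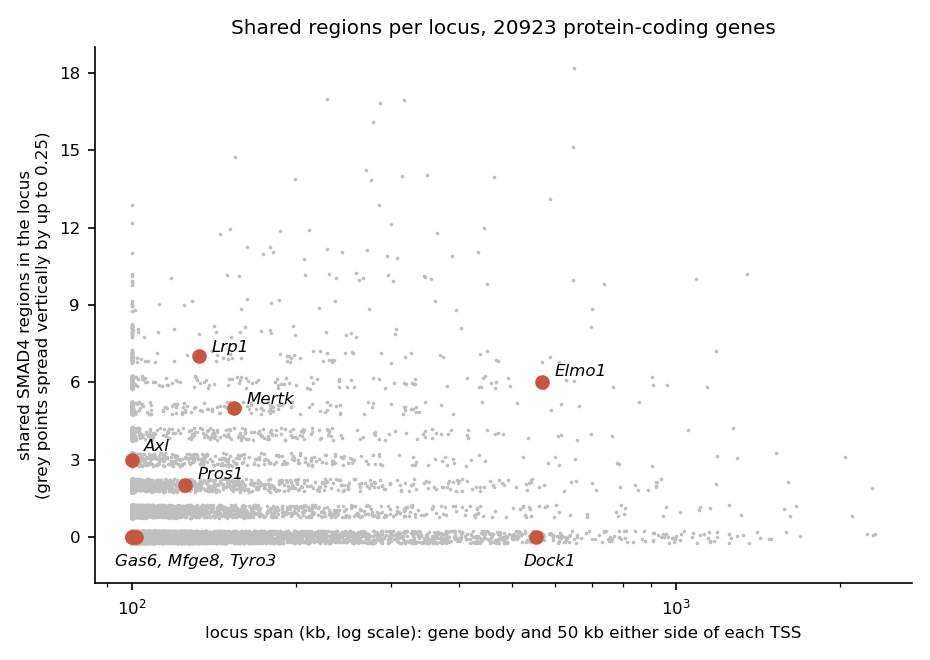
Shared SMAD4 regions per locus (y axis) against locus span in kb (x axis, log scale) for 20923 protein-coding genes in grey and the 9 efferocytosis genes in red. Lrp1 lies high for its span of 133 kb, and Dock1 lies at 0 among loci of more than 500 kb.

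Position within the genes was intronic for most regions. Of the 23 shared regions, 20 had their summit in an intron, 2 were intergenic and 1 was in a promoter, that of a neighbouring gene. The search rule takes in whole gene bodies, so the intronic share follows in part from it and is given only as a description beside the 49.3% of all shared regions. None of the 9 genes had a shared region in its own promoter, here the stretch from 1 kb before a TSS to 100 bp past it, which 3.10% of protein-coding genes had. A region was nearer to the TSS of a member than to any other TSS in 20 of 23 cases. At least 1 such region was found for 5 of the 9 genes (55.6%), and for 21.5% of all protein-coding genes.

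Among the TAM receptors, Mertk had the strongest regions. MERTK is the receptor most used by resting macrophages for the uptake of apoptotic cells. Its 5 shared regions lay in the gene itself. Of these, 4 were in intron 1 and spread over 9851 bp. The strongest of the 4, at chr2:128719290-128719707, lay 20.6 kb downstream of the TSS. Its fold enrichment (summit pileup over the control level, with 1 added to each) was 13.3 in replicate 1 and 11.7 in replicate 2. Its summits held 40 and 25 fragments. Its neighbour at chr2:128718447-128718783, 959 bp away from summit to summit, had folds of 6.50 and 4.06, from 19 and 8 fragments. The other intron 1 regions, 10.8 and 18.6 kb downstream of the TSS, both had a fold of 6.17 in replicate 1, and folds of 6.77 and 9.48 in replicate 2. The fifth region, at chr2:128745743-128746145 in intron 4, had folds of 10.7 and 16.7, from 32 and 36 fragments. By the smaller fold of each region, the intron 1 and intron 4 maxima ranked 1740 and 2139 of 10964 shared regions. The order of these maxima differed between the libraries, with intron 1 higher in replicate 1 and intron 4 in replicate 2. Both stood above the other 3 regions of Mertk in each library.

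AXL, which is known as the TAM receptor prominent on airway macrophages, had 3 weaker shared regions. A pair in intron 4 had summits 331 bp apart. Its stronger member, at chr7:25782822-25783075 and 5.76 kb downstream of the TSS, had folds of 5.85 and 12.6, from 17 and 27 fragments. The other, at chr7:25782560-25782737, had folds of 5.80 and 8.12, from 23 and 17 fragments, and in replicate 1 its control level was 3.14 fragments against a background of 2.08. The third, at chr7:25768728-25769009, had folds of 5.2 and 7.67, from 15 and 16 fragments. It lay in intron 10, 11 or 12 of Axl, according to the transcript, but was nearer to the TSS of Hnrnpul1, the neighbouring gene. By the smaller fold, these ranked from 6428 to 7714 of 10964, below the median shared region. The replicates differed here, since the fold of 12.6 in replicate 2 was above the median of 9.48 over all shared regions in that library and above the 11.7 of the Mertk maximum in intron 1, whereas in replicate 1 all 3 Axl folds were below both Mertk maxima and below the median of 6.82. Peaks without a partner lay around them. Replicate 1 had one 2.16 kb upstream of the Axl TSS with a fold of 5.52, and replicate 2 had one in the gene body with a fold of 7.22 and a pair just upstream of Hnrnpul1 with a fold of 5.41 each.

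TYRO3 is the third TAM receptor. No peak of either library lay in its locus of 102 kb, and the closest shared region was 209 kb from a Tyro3 TSS, with folds of 5.53 and 5.63. The closest peak without a partner was in replicate 2 and lay 52025 bp away, just outside the limit.

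Over all protein-coding loci, 39.1% held a shared region. Of the bridging proteins, only Pros1 did, with 2 shared regions. That in its intron 1, at chr16:62857554-62857794 and 3.41 kb downstream of the TSS, had folds of 5.52 and 5.41, from 16 and 11 fragments. The other, at chr16:62847582-62847844, lay 6.60 kb upstream of the Pros1 TSS but in the promoter of Arl13b, a gene for a ciliary GTPase that starts nearby in the opposite direction. It had folds of 5.97 and 4.19, from 19 and 9 fragments, and ranked 10231 of 10964, close to the weakest. The Pros1 locus also had 2 peaks without a partner in each library, of 10 to 12 fragments. Those 14.3 kb upstream of the Pros1 TSS in replicate 1 and 9.31 kb upstream in replicate 2 were nearest to the TSS of Arl13b.

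Gas6 had no peak in its 100 kb locus in either library. The closest shared region lay 155 kb from its TSS and nearest to Rasa3. At Mfge8 the only peak was in replicate 2, 45.0 kb upstream of the TSS, with a fold of 5.86 from 13 fragments, and the closest shared region lay 609 kb away, nearest to Wdr93. At a depth at which the weakest peaks called had 9 fragments in replicate 1 and 7 in replicate 2, weaker binding at Gas6, Mfge8, Tyro3 and Dock1 would not have been detectable.

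Lrp1 had the most shared regions. They fell in 3 places, intron 20, intron 6 and upstream of the gene. Intron 6 held 4, whose summits spread over 8593 bp. The strongest, at chr10:127604449-127605006, had folds of 16.6 and 20.8, from 50 and 45 fragments, and ranked 735 of 10964. The next, at chr10:127600001-127600530, had folds of 8.45 and 14.9, from 25 and 32 fragments. The remaining intron 6 regions were weak, with folds of 6.17 and 6.77 at the one and 4.87 and 4.06 at the other, whose summit in replicate 2 held 8 fragments. The region in intron 20 was unequal between the libraries, with folds of 5.52 and 12.2. Upstream of the gene, a region 10.7 kb from the Lrp1 TSS had folds of 6.17 and 9.02. A further one, 13.4 kb upstream, had folds of 5.2 and 8.12, but was nearer to the TSS of Stat6, which encodes a transcription factor of interleukin-4 signalling. Lrp1 and Stat6 start in opposite directions from this stretch, and the peak lists cannot say which gene, if any, these regions serve.

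Elmo1 held the strongest region of the 9 loci. It lay at chr13:20349585-20350400 in intron 14 of 21 of the long transcript, 123 kb upstream of the TSS of the short transcript. Its folds were 20.5 and 23.5, from 62 and 51 fragments, and it ranked 389 of 10964. The other 5 regions were weaker in both libraries. A pair in intron 1, 1.96 and 3.35 kb downstream of the first TSS, had folds of 4.77 and 10.8 at the closer and 7.80 and 13.5 at the farther site. The region in intron 2 had folds of 7.80 and 9.48, that in intron 3 had 5.52 and 4.96, and that in intron 13 had 4.87 and 8.12. From the first to the last summit they covered 257510 bp. Among loci of 500 kb or more, 8.85% held at least 6 shared regions, so that the count at Elmo1 was in the upper range for its length.

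Dock1, which encodes the partner of ELMO1, had no peak in 553 kb in either library. The closest shared region was 974 kb from its TSS, near Ptpre, and was strong, with folds of 23.4 and 22.4. In the class of loci of 500 kb or more, 15% had no peak in either library and 58.1% no shared region.

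**Figure D3:**
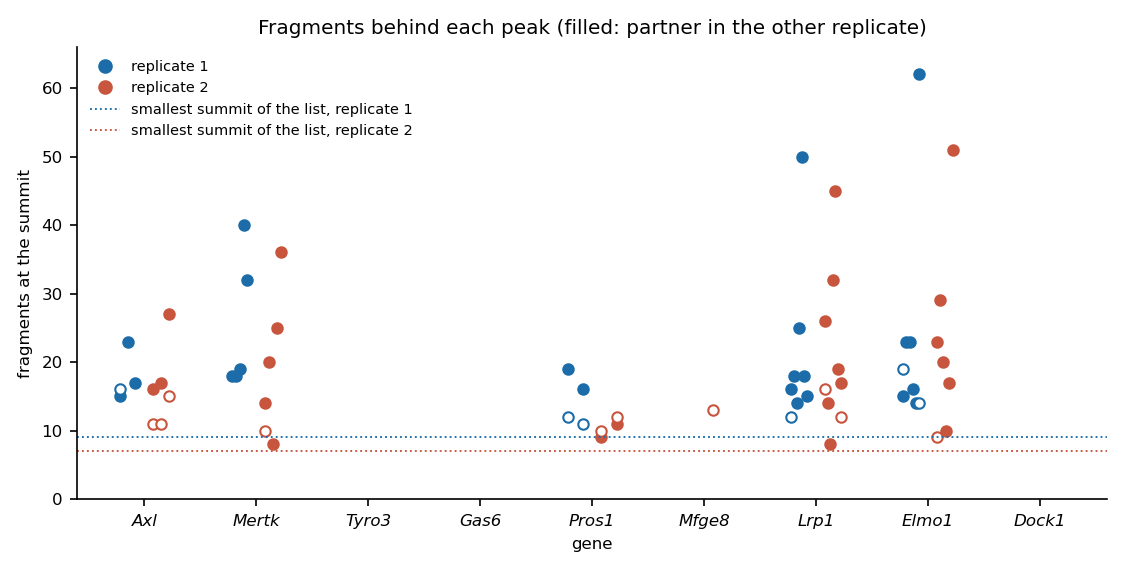
Fragments stacked at the summit (y axis) of each peak at the 9 loci, by gene, with replicate 1 in blue and replicate 2 in red. Filled points have a partner in the other replicate, and dotted lines give the smallest summit of each list (9 and 7 fragments). The open points lie between 9 and 19 fragments, whereas the highest filled points of Mertk, Lrp1 and Elmo1 lie at 36 or more in both replicates.

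Replicate agreement was compared at the level of peaks and of fold enrichment. Of the 29 locus peaks of replicate 1, 23 had a partner (79.3%, exact 95% interval 60.3 to 92.0), against 69.4% of all its peaks. Of the 33 of replicate 2, 23 had one (69.7%, 51.3 to 84.4), against 59.2% of all its peaks. Both intervals include the share of the whole list, and they cover counting error only. The 6 peaks without a partner in replicate 1 had 11 to 19 fragments and folds of 2.63 to 6.50, and the 10 in replicate 2 had 9 to 16 fragments and folds of 3.32 to 7.67. Within the shared regions the summits lay a median of 60 bp apart, with the largest gap at the Lrp1 region nearest to Stat6, against a median of 49 bp over all shared regions.

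By median fold, the shared regions of the 9 loci were slightly weaker than all shared regions in both libraries. Their median fold was 6.17 in replicate 1 (4.77 to 20.5) and 9.02 in replicate 2 (4.06 to 23.5), against 6.82 and 9.48 over all shared regions. By the smaller of both folds, 7 were above the median of all shared regions and 16 below, and 2, at Lrp1 and Elmo1, were among the strongest 10%. Fold was higher in replicate 2 at 17 regions and higher in replicate 1 at 6, compared with higher in replicate 2 at 87.2% of all shared regions. The libraries were not scaled to each other, so this difference is between libraries and not between conditions. The folds of the 23 regions ranked with a Spearman rho of 0.556 between the libraries, against 0.782 over all shared regions. Regions of a library share its depth and background, and no p-value was computed. The control level was at the library background at 20 of the 23 summits in replicate 1 and 22 in replicate 2, so that most of these folds came from the pileup alone.

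**Figure D4:**
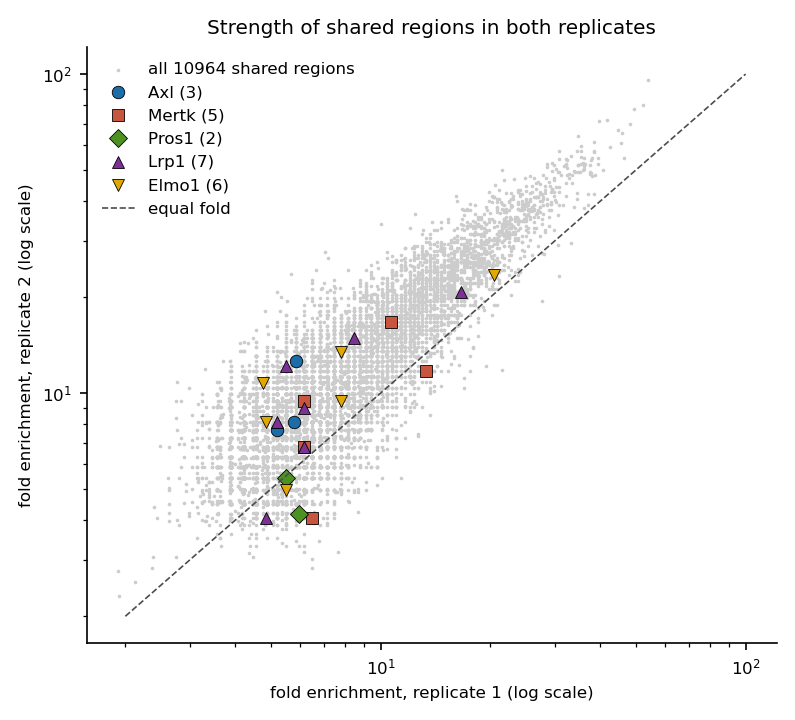
Fold enrichment in replicate 1 (x axis, log scale) and replicate 2 (y axis, log scale) of all 10964 shared regions in grey and of the 23 regions at 5 efferocytosis genes in colour. The dashed line marks equal folds. The regions of Elmo1 and Lrp1 with folds above 16 in both replicates lie toward the strong end, and most others lie in the lower part of the cloud.

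To set the 9 genes in the wider process, 47 other engulfment genes were examined under the same rule. A shared region was present at 27 of them (57.4%), a share close to the 55.6% among the 9 genes, beside the 39.1% of all protein-coding loci. Neither share was tested, and the lists were chosen with earlier results of these data known. Shared regions were present at 10 of 14 signalling and cytoskeletal genes, 3 of 4 genes of signals against uptake, 4 of 5 genes of TAM and LRP1 shedding or control, 7 of 14 receptors, and 3 of 10 bridging proteins and opsonins. The share was lowest for the bridging proteins and opsonins. The complement genes C1qa, C1qb and C1qc, the surfactant protein genes Sftpa1 and Sftpd, and Thbs1 and Mbl2 had none. Anxa1, which encodes a phosphatidylserine-binding protein, had 4 shared regions, with folds of 28.3 and 32.5 at the strongest. C3 had 1, in a promoter and nearest to its own TSS, with folds of 4.55 and 13.1. Anxa5 had 1, nearest to the TSS of another gene, with folds of 3.57 and 7.22.

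The relatives of Dock1 and Elmo1 differed from them. Dock4 had 10 shared regions, Dock5 had 5 and Dock2 had 4, in contrast to none at Dock1. The folds at the strongest were 20.8 and 31.6 for Dock4, 27.6 and 35.2 for Dock5, and 7.47 and 13.5 for Dock2, the family member of leukocytes. None of the Dock5 regions was nearest to a Dock5 TSS, and the strongest Dock2 region was nearest to the TSS of another gene. Elmo2 had 1 region, with folds of 9.10 and 14.4, and Elmo3 had none. Rac1, whose product the ELMO1 and DOCK1 complex activates, had 2, with folds of 9.75 and 11.7 at the stronger. The proteases that cut TAM receptors from the cell surface, Adam17 and Adam10, had 1 and 2 shared regions, and Lrpap1, the chaperone of LRP1, had 1.

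The strongest shared regions of the other lists lay at Cd36 (folds of 37.4 and 48.7), Cd14 (32.5 and 48.3), Anxa1, Dock5 and Sirpa (22.7 and 32.9). CD36 is a scavenger receptor for oxidised lipids and dying cells, CD14 a receptor for lipopolysaccharide that also tethers apoptotic cells, and SIRPα the receptor for CD47, the signal of live cells that restrains uptake. In each library the strongest region in the locus of each of these 5 genes had a higher fold than any region at the 9 genes. In the loci of Cd14 and Dock5, that region was nearest to the TSS of another gene.

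Consensus strings of DNA-binding factors were counted on both strands in the 201 bp windows of the 23 regions, of all 10964 shared regions, and of flank windows of the same length centred 1 kb to either side. The strings were GAGGAAGT for PU.1 and CAGGAAGT for other ETS factors, TGTGGT for RUNX, TGACTCA (or G in place of its central C) for AP-1, and AGGTCA for a nuclear receptor site. For SMADs, GTCTGG was searched along with CAGACA, known as the CAGA box, and a GC element read as GGCGCC. The others were CACGTG for an E-box, TTCNNNGAA for STAT5, TGCTGAC for MAF, GTGGGAA for RBPJ, and tandem nuclear receptor sites spaced by 4 bases for LXR. The CEBP string was TT, then purine and pyrimidine in alternation, then AA. The GTCTGG string can overlap the CAGA box, as at Axl, where their matches are centred about 6 and 7 bp from a summit. A match is a match of letters and does not show that a factor was bound.

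RUNX strings were present at 8 of the 23 regions (34.8%), against 26.4% of all shared regions and 15.4% of flanks. CEBP strings were present at 5 (21.7%), against 23.6% and 4.95%. The PU.1 string was present at 4 (17.4%), against 8.0% and 1.46%. PU.1, CEBP and RUNX factors are known for opening chromatin in macrophages. The PU.1 matches were at Mertk intron 1, Pros1 intron 1, Lrp1 intron 6 and Elmo1 intron 1, 1 region at each gene. The ETS string was found at 0 regions, against 5.62% of all shared regions and 1.61% of flanks. The AP-1 string was found at 2 (8.70%), against 8.91% and 3.73%.

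The SMAD strings were about as frequent in flanks as in regions. The CAGA box was present at 6 of the 23 regions (26.1%), against 19% of all shared regions and 18.4% of flanks, and GTCTGG at 3 (13.0%), against 11.2% and 10.4%. GGCGCC was present at none of the 23 and at 1.01% of all shared regions. Any of the 3 was present at 7 of the 23 regions, against 25.4% of all. The nuclear receptor site was found at 4 of the 23 (17.4%), against 15.4%, at Mertk, Lrp1 and Elmo1. The RBPJ string was found at 3, at Axl, Mertk and Elmo1, against 4.14% of all, STAT5 at 2, against 8.06%, and the E-box at 1, against 3.65%. The MAF and LXR strings were found at 0, against 3.66% and 0.0912% of all shared regions. With 23 regions, a region more or less moves a share by several percentage points. No string was found at 4 regions. GC content was alike, with a median of 43.8% in the 23 windows and over all shared regions.

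**Figure D5:**
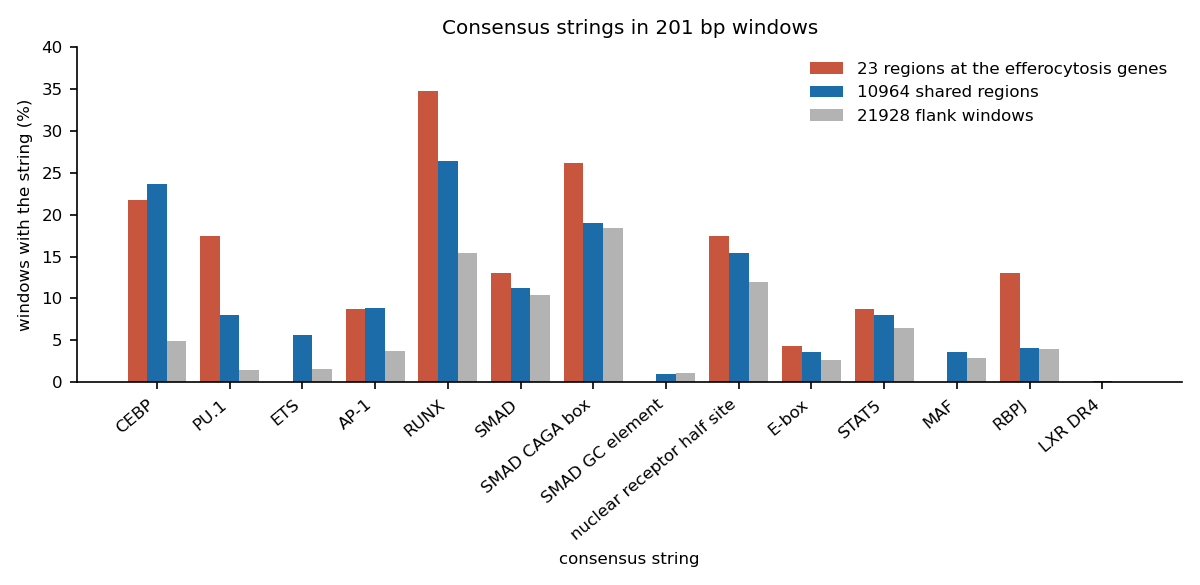
Share of 201 bp windows with each consensus string (y axis, percent) for the 23 regions at the efferocytosis genes in red, all 10964 shared regions in blue and 21928 flank windows in grey. The CEBP, PU.1, RUNX and AP-1 strings stand above the flanks in both sets of regions, while the SMAD strings differ little between all shared regions and flanks.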

How the data were processed

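SMAD4 HT-ChIPmentation of mouse AMs was analysed from the peak lists of 2 libraries. The authors used Cutadapt for trimming, Bowtie2 for alignment to mm10 and SAMtools for filtering, and called peaks with MACS3 in each library separately, with input as control and a q-value limit of 0.05. The deposited fold ratio divides the pileup at a summit by the control level there, after 1 is added to each. The deposited −log10 values are those of p and q at that position. Summit offsets are also given. The score that the authors deposited was not used. Depth totals were not used here. Instead, pileup and control level, in fragments, were solved from fold and p, with a largest miss of 0.000516 and 0.000540 in −log10 p. The median summit had 17 fragments in replicate 1 and 14 in replicate 2.

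Replicates were numbered in accession order. Peaks overlapping by at least 1 bp were merged into shared regions. Gene models were 45657 curated RefSeq transcripts of GRCm38. Coordinates are 1-based. Each summit was assigned to a promoter (from 1 kb before a TSS to 100 bp past it), a termination site, an exon, an intron or intergenic sequence, in this order. With 1 condition there was no test, and counts are given beside those of all genes, peaks or regions. Intervals are exact (Clopper-Pearson) 95% binomial intervals. The members, gene lists and strings were chosen with earlier results of these data known. Named were all 9 genes, genes whose TSS was nearest to a region in their loci, and the 5 other engulfment genes with the strongest regions. Further list members, and relatives of named genes, were named after their values were seen. Python 3.11.15, numpy 2.4.6, pandas 2.3.3 and scipy 1.17.1 were used. The recovery of pileups, overlaps and strings was tested on simulated data. One gene of the marker lists is not reported here. Alternatives concerned the overlap, fold, q and distance limits, the locus rule, the string window and each library alone.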

Additional observations from a re-analysis of the deposited data

How the results depend on the processing

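No paired analysis was possible because 1 condition with 2 libraries holds no contrast between groups. Of 188 values recomputed under alternatives, 168 stayed near the reported value and 20 moved. A change of direction was not scored. Near is a loose label, since it covers the fall from 23 to 18 regions below and counts of 0 that stayed at 0. The 9 loci held 23 shared regions, 18 with 50% reciprocal overlap, 17 with a fold of 5 or more in both libraries, and 27 with 100 kb around a TSS. With each library's own peaks they held 29 to 33. Genes with a region numbered 5 under each alternative except the peaks of replicate 2 alone, where Mfge8 made 6. Elmo1 fell from 6 regions to 3 with 50% overlap and with a fold of 5 or more, and Pros1 from 2 to 1 with a fold of 5 or more, in the gene body alone and by nearest TSS. Axl rose from 3 to 5 with 100 kb. The median fold of the regions over that of all shared regions was 0.900, and 0.95 with only regions nearest to the member's TSS. CEBP strings were found at 5 regions, 8 with 200 bp each side of the summit and 2 with 50 bp. In replicate 2, 4 regions rest on 8 to 10 fragments, so that their count is less firm than the regions of Mertk, Lrp1 and Elmo1 with 25 or more fragments in both libraries.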
